A study of Mus musculus with 2 samples.

Results

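The Mmp, Adam and Adamts proteases and the Timp inhibitors were compared between hepatocytes of healthy livers and Sox9+EpCAM- cells of injured livers. They were chosen by name, as every gene of the array whose symbol is Mmp, Adam or Adamts followed by a number, with or without a letter, or Timp followed by a number. This gave 78 of the 30175 genes named on the array, namely 23 Mmp, 4 Timp, 32 Adam and 19 Adamts genes, read by 116 probes on 134 spots. The only spot of Adam39 was marked as an outlier on 1 array, with an intensity of 125 in hepatocytes and 22.2 in Sox9+EpCAM- cells, so that 77 members had a usable value.

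The study asked whether the Sox9+ biphenotypic cells of chronic liver injury, which carry both hepatocyte and bile duct markers, are all alike as progenitors, and compared them with mature hepatocytes (MHs) on arrays to find markers. By the methods, both groups came from mice with the Sox9-EGFP transgene, which reports Sox9 by green fluorescence, after collagenase digestion of the liver. The MHs came from normal livers and were purified on a Percoll gradient, without a sort, while FACS gave the Sox9+EpCAM- cells after feeding with DDC, a compound that injures the bile ducts, and the gate kept fluorescent cells without surface EpCAM. Each group is 1 RNA on 1 Agilent array with 60-base probes, both samples are labelled male, and the sources used here give neither the age nor the number of the mice behind each RNA.

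With 1 array per group there is no replicate check and no test, and precision is limited by the number of arrays. A difference of at least 4-fold was the rule of size. Intensities are given as deposited, with the background subtracted. For the differences, each array was divided by its 75th percentile, 741 for MHs and 1110 for Sox9+EpCAM- cells, so an equal intensity on both arrays is a log2 difference of -0.58. Where several probes read a gene, the one with the highest mean over both arrays stands for it, and levels of different probes cannot be set against each other. The scanner software flags spots that are well above background. A probe too dim to be called well above background on one array gives only a bound, "at least". The bound is taken against its own signal or, if that is lower, against the dimmest signal called well above background there, which was 27.8 for MHs and 18.4 for Sox9+EpCAM- cells.

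Of 43020 spots, 27523 were well above background in MHs and 32158 in Sox9+EpCAM- cells, and none was saturated. The array of MHs went against its label in one respect. Xist, the RNA that coats the silenced X chromosome in female cells, was lower in Sox9+EpCAM- cells than in MHs by at least 158-fold, while of 5 probes for 4 Y-linked genes 0 were well above background in MHs and 4 were in Sox9+EpCAM- cells. Both samples had bright Alb, the hepatocyte gene of serum albumin, at 207000 in MHs and 170000 in Sox9+EpCAM- cells. Sox9, the gene behind the sort, was not well above background in MHs (8.87) and was dim in Sox9+EpCAM- cells (60.7), a difference of at least 1.45-fold. Epcam, whose protein the gate selected against, was nevertheless higher in the sorted cells, at 139 and 2770. All 6 hepatocyte markers had a negative difference (median -0.94), with Cyp3a11 381-fold lower, and their summed level was 893 times the 75th percentile in MHs and 424 times in Sox9+EpCAM- cells. The 6 cholangiocyte markers had a median difference of 0.47, with Epcam and Spp1 (122-fold higher) past 4-fold, Krt19 1.33-fold higher, Krt7 1.18-fold lower and Cftr lower as well, at 69.6 and 52.1, and their summed level was 1.43 and 45.7. Most of the second sum is Spp1 alone, at 258 in MHs and 47000 in Sox9+EpCAM- cells. Of the others, 3 of 7 endothelial markers were lower by at least 4-fold, with sums of 7.19 and 2.71. The part of these cell types in the results on the proteases was not tested.

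Mmps are zinc proteases that cut collagens, elastin and other matrix proteins, and most are made as inactive precursors. Timps bind the active site of Mmps, and Timp3 also blocks several Adam and Adamts enzymes. Adams are mostly membrane proteins, of which Adam10 and Adam17 cut growth factors, cytokine receptors and adhesion molecules off the cell surface, while Adamts enzymes are secreted and act on proteoglycans, procollagens and von Willebrand factor. In the injured liver these families take part in the turnover of scar matrix.

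A row of 10 Mmp genes lies on chromosome 9, and promoters from it are shown because AP-1, the dimer of Fos and Jun proteins, is a textbook regulator of several of them and binds near TGACTCA or its reverse complement TGAGTCA. The probes of these 10 genes span chr9:7282762-7697700 of mm9, the build of the array design, or 415 kb. The stretches below are RefSeq sequence of GRCm38.p6 from base 110 to base 11 before a transcript start, 5′ to 3′ on the strand of the gene, with the AP-1 letters in capitals. The first 7 hold the letters and Mmp8 does not.
Mmp13, chr9:7272404-7272503, plus strand: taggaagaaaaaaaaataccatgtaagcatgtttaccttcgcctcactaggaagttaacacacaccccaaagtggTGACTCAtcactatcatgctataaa
Mmp12, chr9:7347264-7347363, plus strand: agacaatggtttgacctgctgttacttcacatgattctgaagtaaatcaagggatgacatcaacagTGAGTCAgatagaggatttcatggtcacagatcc
Mmp1b, chr9:7388037-7388136, minus strand: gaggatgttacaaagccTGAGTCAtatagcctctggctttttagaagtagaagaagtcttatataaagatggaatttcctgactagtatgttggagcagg
Mmp3, chr9:7445712-7445811, plus strand: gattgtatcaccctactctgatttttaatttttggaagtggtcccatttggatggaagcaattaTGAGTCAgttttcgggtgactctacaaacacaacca
Mmp1a, chr9:7464031-7464130, plus strand: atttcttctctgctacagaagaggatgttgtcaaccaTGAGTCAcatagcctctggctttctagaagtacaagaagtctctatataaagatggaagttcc
Mmp10, chr9:7502232-7502331, plus strand: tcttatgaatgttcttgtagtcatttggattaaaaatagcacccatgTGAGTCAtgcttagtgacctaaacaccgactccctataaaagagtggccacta
Mmp7, chr9:7691980-7692079, plus strand: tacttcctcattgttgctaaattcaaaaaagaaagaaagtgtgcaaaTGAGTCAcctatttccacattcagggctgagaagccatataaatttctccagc
Mmp8, chr9:7558319-7558418, plus strand: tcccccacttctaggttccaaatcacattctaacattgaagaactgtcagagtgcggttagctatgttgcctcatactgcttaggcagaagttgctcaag

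The letters began 35 bases before the start in Mmp13, 44 in Mmp12, 46 in Mmp3, 63 in both Mmp7 and Mmp10, 73 in Mmp1a and 93 in Mmp1b. Mmp12 and Mmp7 each have another start in the table, and neither of those holds the letters. All 10 genes of the row had a promoter in the table, and Mmp8, Mmp20 and Mmp27 lacked these letters in the bases searched, although Mmp20 had TGAATCA. The search for TGANTCA, which covers both strands because its reverse complement has the same form, used 250 bases before and 50 after each start. Of the 78 members 48 were in the table, and 12 of them (25.0%) held TGANTCA against 8.97% of 27025 genes, while TGACTCA or TGAGTCA stood in 10 of them (20.8%) against 5.95%. Besides the Mmp genes of the row, the 10 were Adam19, Adam29 and Adam1b, and no Timp and none of 10 Adamts promoters held either form. These are matches of letters, not sites known to be bound in these cells.

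Of the 7 genes of the row with the letters, 2 were well above background in both cell types, 2 in Sox9+EpCAM- cells alone and 3 in neither. Mmp7, the matrilysin of epithelia, had an intensity of 9.80 in MHs, which is not well above background, and 303 in Sox9+EpCAM- cells, and was at least 7.28-fold higher. Mmp3, stromelysin 1, had 6.60 and 117, at least 2.81-fold higher. Mmp13, the main interstitial collagenase of rodents, was measured on both arrays at 63.9 and 53.2, a log2 difference of -0.85, and Mmp1a, a rodent relative of human MMP1, at 98.4 and 240, a log2 difference of 0.70. Mmp10, Mmp12 and Mmp1b stayed between 4.10 and 10.9 and were not well above background on either array. Mmp8, the collagenase best known from neutrophils, was without the letters and was 7.90-fold higher in Sox9+EpCAM- cells, at 43.5 and 515.

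**Figure D1:**
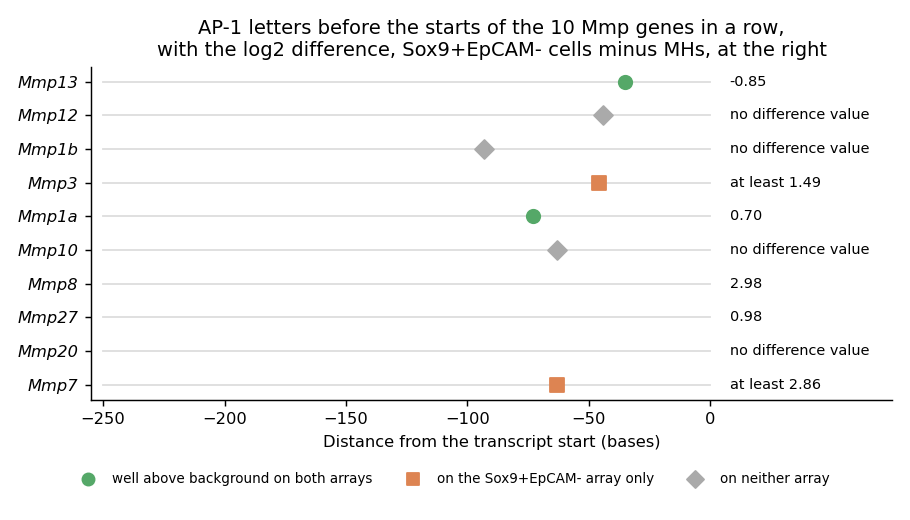
Position of TGACTCA or TGAGTCA before the transcript start (x axis, bases) for the 10 Mmp genes that lie in a row on chromosome 9, with the status of each gene on the arrays as the symbol and its log2 difference at the right. The 7 genes with the letters include 3 that were not well above background on either array, and Mmp8, with a log2 difference of 2.98, has none.

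Over the 4 families, 14 of 77 members (18.2%) were higher in Sox9+EpCAM- cells by at least 4-fold and 0 were lower by as much. Over all 30153 genes with a usable probe, 4.34% were higher and 4.32% were lower by this rule. By the flags of the scanner software 41 members had signal in both cell types, 15 (19.5%) in Sox9+EpCAM- cells alone, 2 (2.60%) in MHs alone and 19 in neither. Of all genes 12.0% had signal in Sox9+EpCAM- cells alone and 1.90% in MHs alone. A difference could be given for 54 members, with a median of 0.57 on the log2 scale, against -0.12 over the 21875 genes of the array that had one. Of these values 13 for members and 2643 over all genes are bounds. A gene seen on 1 array has a value only where its bound points to that array. The medians, also those by family, rest partly on such genes. In a mixed RNA, fewer cells of a type and less RNA per cell cannot be told apart.

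By family, 6 of 19 Adamts genes were higher by this rule (median 1.35 over 14), of the Timps 2 of 4 (median 1.97), of the Mmps 5 of 23 (median 1.03 over 16) and of the Adams 1 of 31 (median -0.16 over 20). The Adam share, 3.23%, is near the 4.34% of all genes. Among members measured on both arrays, where the sign is not set by a bound, the difference was positive in 3 of 3 Timps, 9 of 13 Mmps, 8 of 11 Adamts genes and 3 of 14 Adams. Over all genes with a difference, bounds included, 9785 were positive and 12090 negative. The median over all genes measured on both arrays was -0.19. The error that the scanner software gives for a spot, carried to the difference, was 0.20 to 0.33 on the log2 scale for the 41 members on both arrays, and it covers the spot only, not the variation between mice.

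**Figure D2:**
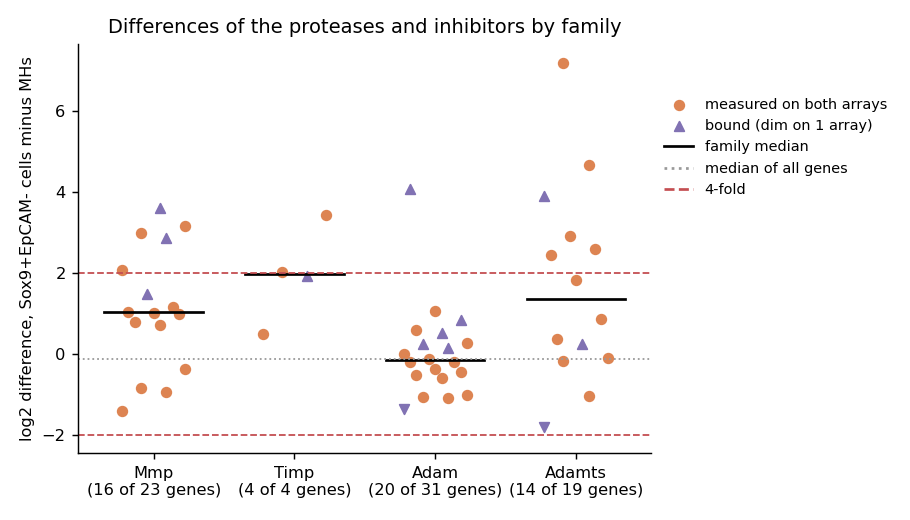
Log2 difference (y axis, Sox9+EpCAM- cells minus MHs) of each member with a value, by family; each point is a gene, triangles are bounds, black lines are family medians and dashed lines mark 4-fold. No member lies under the lower dashed line, and the Adam genes centre near the median of all genes, -0.12.

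Adamts1, of the proteoglycan-cleaving Adamts genes, had the largest difference of the 41 members measured on both arrays. This enzyme, which cuts versican and aggrecan and restrains vessel growth, had 72.5 in MHs and 16000 in Sox9+EpCAM- cells, 147-fold higher. Adamts8, a relative of Adamts1, had 251 and 2040 and was 5.43-fold higher, and its dimmer probe had 8.37 and 140, at least 3.36-fold higher. Adamts4 and Adamts5, the main aggrecanases of cartilage, stayed under the rule, with 111 and 591 (3.55-fold higher) for Adamts4 and 212 and 582 (1.83-fold higher) for Adamts5. Adamts1 and Adamts5 are neighbours on chromosome 16, so neighbours by position had unlike differences here. Adamts15 was well above background only in Sox9+EpCAM- cells, at 49.0, and Adamts9 likewise at 31.1. Adamts20 was on neither array well above background.

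The procollagen N-proteinases remove the amino-terminal propeptide of fibrillar procollagens. Adamts2, the main enzyme of this kind for type I collagen, was 25.5-fold higher, with 39.0 in MHs and 1490 in Sox9+EpCAM- cells, and its dimmer probe went the same way, with 33.7 and 547, at least 10.8-fold. Adamts14 had 154 and 297, a log2 difference of 0.36, and Adamts3 was not well above background on either array. Of the list of fibroblast and stellate markers, 4 of 10 were at least 4-fold higher and 1 was lower, and their summed level, in units of the 75th percentile, was 12.8 in MHs and 50.2 in Sox9+EpCAM- cells. Col1a1 was 21.3-fold higher, Col1a2 15.4-fold, Col3a1 85.1-fold and Eln at least 134-fold, while Lrat, an enzyme of vitamin A storage in stellate cells, was at least 7.70-fold lower and Pdgfrb, a receptor of fibroblasts and stellate cells, was not well above background on either array. The part of matrix-producing cells in the higher Adamts and Mmp values was not tested.

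The other Adamts genes went both ways. Adamts12, which cuts cartilage oligomeric matrix protein, had 8.04 in MHs, not well above background, and 627 in Sox9+EpCAM- cells, at least 15.1-fold higher. Its other probe was dimmer, with 8.09 and 58.9, and gave at least 1.41-fold. Adamts10, which binds fibrillin microfibrils, had 98.3 and 1120 (7.61-fold higher), and its second probe was not well above background on either array. Adamts6, closely related to Adamts10, had 73.0 and 658 (6.02-fold higher). Adamts7 was one of the 2 members seen on the MH array only, with 43.2 in MHs and 3.66 in Sox9+EpCAM- cells, at least 3.52-fold lower. Adamts13, made by hepatic stellate cells and known for cutting von Willebrand factor, was near level by the scaled values, at 118 and 164 with a log2 difference of -0.11. Adamts17 had 133 and 96.2, a log2 difference of -1.05. Adamts18 and Adamts19 were on neither array well above background, and for Adamts19 this held on all of the 10 spots of its probe on both arrays.

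All 4 inhibitors were brighter in Sox9+EpCAM- cells. Timp2, which also helps Mmp14 to activate proMmp2, had 257 in MHs and 4170 in Sox9+EpCAM- cells, 10.8-fold higher, and its second probe had 51.5 and 883, 11.4-fold higher. Timp3, the inhibitor that is held in the matrix, had 728 and 4430, 4.06-fold higher and just inside the rule. Timp1, the inhibitor most often followed in liver fibrosis, was not well above background in MHs (6.02) and had 158 in Sox9+EpCAM- cells, at least 3.79-fold higher, a bound that does not settle on which side of 4-fold it lies. Timp4 had 996 and 2100, 1.41-fold higher. In the RefSeq table Timp1, Timp3 and Timp4 each overlap a synapsin gene, Syn1, Syn3 and Syn2.

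**Figure D3:**
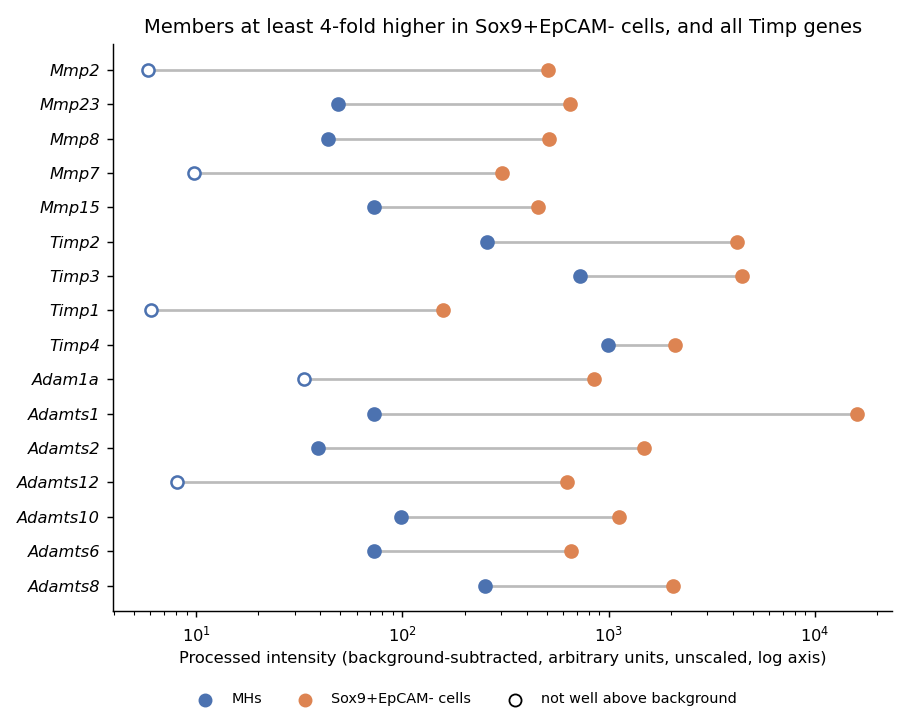
Processed intensity (x axis, log scale, not scaled between arrays) in MHs and in Sox9+EpCAM- cells for the 14 members at least 4-fold higher and the other two Timp genes; each point is the mean over the spots of 1 probe on 1 array, and open circles were not well above background. Adamts1 spans from 72.5 to 16000, and the 5 open circles are Mmp2, Mmp7, Timp1, Adam1a and Adamts12 in MHs.

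Of the gelatinases, Mmp2 had a signal and Mmp9 had none above background. Mmp2, an enzyme typical of mesenchymal cells, had 5.85 in MHs, not well above background, and 508 in Sox9+EpCAM- cells, at least 12.2-fold higher. Mmp9, typical of neutrophils and macrophages, was printed on 10 spots, and none of the 8 spots kept was well above background on either array, with medians of 6.26 and 4.35. The neutrophil markers S100a8, S100a9, Ngp and Retnlg were also not well above background on either array, while Camp (99.9 and 131), Elane (80.1 and 73.9) and Mpo (74.1 and 121) were so on both and within 4-fold. Of the 7 macrophage markers on the array 1 was higher and 5 were lower in Sox9+EpCAM- cells, and their summed level was 30.0 and 13.9 times the 75th percentile. With no Mmp9 signal on either array, no direction can be given for it.

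The membrane-type Mmps sit on the cell surface. Mmp14, which activates proMmp2, was bright on both arrays, at 5820 in MHs and 17600 in Sox9+EpCAM- cells, and was 2.02-fold higher. Mmp15, a second membrane type, had 72.4 and 456, 4.20-fold higher. Mmp17, which is anchored by a lipid, had 87.5 and 292 (2.23-fold higher). Mmp24 had 53.6 and 166 by its standing probe, 2.07-fold higher, while its second probe, not well above background in MHs, had 24.6 and 330, at least 7.92-fold higher. Mmp25, first known from leukocytes, was bright but in the other direction, at 4460 and 3480 with a log2 difference of -0.94. Mmp16 was on neither array well above background. Only Mmp15 of these 6 passed the rule by the standing probe, and it fell under 4-fold with normexp, with quantile normalization, with scaling to Gapdh and in the deposited table.

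Of the other Mmps, Mmp23 had 48.8 in MHs and 650 in Sox9+EpCAM- cells, 8.89-fold higher. Mmp23 overlaps Mib2 in the RefSeq table. Mmp11, stromelysin 3, had 168 and 436 (1.73-fold higher), and Mmp27 148 and 437 (1.97-fold higher). Mmp19, an enzyme of basement membranes, had 1110 and 628 and a log2 difference of -1.40, the most negative of the 41 members measured on both arrays. Mmp28, epilysin, had 312 and 363, a log2 difference of -0.36. Mmp20 and Mmp21 were on neither array well above background.

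Of the Adams of somatic tissues 0 of 9 passed the rule in either direction, beside 4.34% of all genes higher and 4.32% lower. With 9 genes, 0 is near those shares. Adam10, the sheddase of Notch and cadherins, had 1030 in MHs and 1080 in Sox9+EpCAM- cells, and its log2 difference was -0.51. Adam17, the enzyme that releases Tnf and several ligands of the epidermal growth factor receptor, had 541 and 703, a log2 difference of -0.21. Adam9, a widely expressed relative, had 1180 and 1610, a log2 difference of -0.13. These 3 sheddases were therefore well above background on both arrays and within 2-fold. Adam15 had 49.7 and 113 (1.52-fold higher), Adam12 181 and 200 (log2 difference -0.44), Adam19 224 and 221 (-0.60) and Adam33 440 and 510 (-0.37). Adam28 was well above background only in Sox9+EpCAM- cells, at 56.6, and Adam8, typical of myeloid cells, on neither array.

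Of the Adams without a protease site, Adam11 had probes that disagreed, the only such case among the 6 members with more than 1 probe well above background on both arrays. Its standing probe had 1860 in MHs and 1370 in Sox9+EpCAM- cells, 2.03-fold lower, and its other probe had 216 and 987, 3.05-fold higher, so the gene has no settled direction. Adam23 had 153 in MHs and was 2.14-fold lower in Sox9+EpCAM- cells by its standing probe, while a second probe was seen in MHs only, at 62.9 and 17.6 (at least 5.12-fold lower), and another in Sox9+EpCAM- cells only, at 9.28 and 34.1, and Adam22 was not well above background on either array. In 17 members the probes differed in whether they were above background. Adam33 was among them, with a second probe at 16.3, not well above background, and 52.6, at least 1.26-fold higher, against the direction of its standing probe.

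Of the 19 Adams known from testis and epididymis with a usable value, 6 were well above background in MHs and 12 in Sox9+EpCAM- cells. Adam1a, a part of the sperm protein fertilin, was the only Adam past the rule, with 33.4 in MHs, not well above background, and 848 in Sox9+EpCAM- cells, at least 16.9-fold higher. Its single probe has no run of 20 bases in common with any other gene's probe. Intensities of the other Adams of this kind were at most 279 in Sox9+EpCAM- cells and 304 in MHs. Levels of different probes cannot be ranked, so this does not set Adam1a apart by level. Adam1b, its relative on the same chromosome, was on neither array well above background. Adam24 was seen in MHs only, with 31.7 and 3.81, at least 2.58-fold lower, and Adam18 had 304 and 216, 2.11-fold lower. Of the 115 member probes 1 (0.870%) had such a run, Adam25 with Adam39, against 7.67% of all 39429 probes.

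Other genes of extracellular proteolysis were read from a list of 37 activators, inhibitors and partners, of which 7 (18.9%) were at least 4-fold higher and 1 (2.70%) was lower, beside 4.34% and 4.32% of all genes, with a median difference of 0.90 over 30. Plat, the tissue plasminogen activator, was not well above background in MHs (7.49) and had 6100 in Sox9+EpCAM- cells, at least 146-fold higher. Plg, the plasminogen that hepatocytes secrete, was bright on both arrays, at 60800 and 50200, and Plau, the other activator, was on neither well above background. Thbs1, an extracellular activator of Tgfb, was at least 21.7-fold higher and Thbs2 5.86-fold. Adamtsl2, a protein like Adamts enzymes but without the protease part, was 6.98-fold higher. Reck, a membrane inhibitor of Mmps, had 6.51 and 143, at least 3.43-fold higher, while its other probe, at 7.46 and 4.19, was on neither array well above background. Among the partners of the sheddases, Rhbdf1, which carries Adam17 to the surface, was 6.09-fold higher and Tspan15, a tetraspanin that binds Adam10, was 5.25-fold lower. Tspan17, another such tetraspanin, was 5.79-fold higher by its standing probe and 1.45-fold by its second probe, and with the median of all probes the count of 7 became 6. Furin, which removes the propeptide of many members, had a log2 difference of -0.34.

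A list of 26 shed ligands and matrix substrates had 8 members (30.8%) at least 4-fold higher and 1 (3.85%) lower, beside 4.34% and 4.32% of all genes, and a median difference of 0.26 over 22. Of the ligands of the epidermal growth factor receptor, which Adam10 and Adam17 release, Areg had 5.73 in MHs, not well above background, and 5310 in Sox9+EpCAM- cells, at least 128-fold higher. Hbegf had 151 and 5590, 24.7-fold higher, and Btc 12.7 and 423, at least 10.2-fold higher. Tgfa was near level at 600 and 1114 (1.24-fold higher), and Ereg was at least 5.23-fold lower. Cd44, a hyaluronan receptor that several members cut, had a standing probe at 4190 and 4990, 1.26-fold lower, while its other 3 probes were higher, by 1.87-fold, 15.8-fold and at least 19.5-fold. The shed chemokines Cx3cl1 and Cxcl16 were 7.36-fold and 4.70-fold higher. Vcan, the versican that Adamts1 cuts, had 27.6 in MHs, not well above background, and 507 in Sox9+EpCAM- cells, at least 12.2-fold higher. The other Vcan probes, at 5.9 and 3.81 and at 8.2 and 26.1, were not well above background on either array. Nid1, a basement membrane protein, was 8.52-fold higher. Acan, another substrate, was 3.15-fold lower, and Vwf, cut by Adamts13, had a log2 difference of -0.27 by its standing probe and -1.80 by another.

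How many members were past 4-fold, and by how much, changed with the processing. Of the 14 members past 4-fold, 10 were measured on both arrays and 4 are bounds, namely Adam1a, Adamts12, Mmp2 and Mmp7. With normexp background correction and its offset, which draws dim signals together, 8 of the 14 stayed past 4-fold. Adamts6, Mmp15, Mmp23, Mmp7, Mmp8 and Timp3 then fell under it, and Mmp7 had the lowest value, 1.22 on the log2 scale. Timp3, which was not dim, moved only from 2.02 to 1.96. The cause of these changes was not tested. Adam1a, Adamts1, Adamts2, Adamts8, Adamts10, Adamts12, Mmp2 and Timp2 were past 4-fold under every background correction, scaling, choice of probe and choice of spots that gave them a value. Adam1a, Adamts1 and Mmp2 have 1 probe, so the choice of probe could not move them. Taken alone, the dimmer probes gave only at least 3.36-fold for Adamts8 and at least 1.41-fold for Adamts12.

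**Figure D4:**
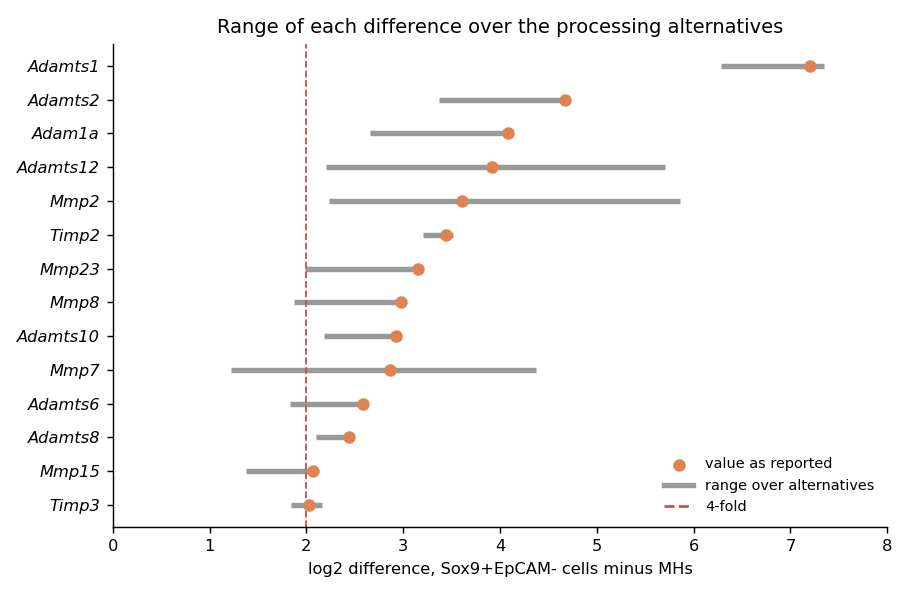
Log2 difference (x axis, Sox9+EpCAM- cells minus MHs) of the 14 members past 4-fold; points are the values as reported, bars their range over 9 or 10 processing settings and the dashed line 4-fold. Adamts1 stayed between 6.28 and 7.35, while the bars of Adamts6, Mmp15, Mmp23, Mmp7, Mmp8 and Timp3 cross the line.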

How the data were processed

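The authors hybridised each of 2 Cy3-labelled RNAs to 1 array and deposited, for each spot, the intensity that Feature Extraction 10.7.3.1 wrote after background subtraction, its error, the mean and background intensity and the flags. The deposited table holds ratio values, each the processed intensity over the median of its array (96.5 for MHs and 164 for Sox9+EpCAM- cells; this factor varied by an SD of 0.0018 in log2 units). Probe coordinates are on mm9.

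Spots that are controls, or that either scan marked as an outlier, were removed, intensities were divided by the 75th percentile and taken to log2, and repeated spots were averaged by probe. The median SD between spots of a probe printed at least 8 times was 0.079 on both arrays. A probe counted as well above background where over 50% of its spots did. No test was possible with 1 array per group. Members and lists were chosen with earlier results of these data known. The genes named are all members past 4-fold, all Timps, the 5 brightest Mmp, Adam and Adamts genes on either array, members whose probes disagree and a list of well-known members. Others, and genes of the lists, were named after their values were seen. A gene of the lists is counted but not reported here by name.

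Alternatives were normexp (limma 3.58.1, R 4.3.3, offset 50), other scalings, other choices of probe, outliers kept, the deposited table, no bound, genes on both arrays only, and thresholds of 2-fold and 10-fold. A value counted as moved when it changed by over 1.5-fold. Python 3.11.15, pandas 2.3.3 and numpy 2.4.6 were used, and the procedure was tested on simulated data. All 78 symbols are current in RefSeq of GRCm38.p6. The promoters of 30 members (Adam11, Adam12, Adam18, Adam2, Adam24, Adam26a, Adam28, Adam3, Adam30, Adam32, Adam33, Adam39, Adam4, Adam5, Adam7, Adam9, Adamts10, Adamts15, Adamts16, Adamts19, Adamts4, Adamts5, Adamts6, Adamts7, Adamts8, Mmp16, Mmp17, Mmp19, Mmp2 and Mmp9) and the protein sequences were not analysed here, and the narrowing of the motif to C or G was made after the matches were seen.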

Additional observations from a re-analysis of the deposited data

How the results depend on the processing

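The 14 members higher in Sox9+EpCAM- cells became 8 with normexp, 13 with quantile normalization (without Mmp15), 10 among genes on both arrays and 6 at 10-fold, and 18 without the bound, which adds Adam4, Adamts15, Mmp3 and Timp1, and 21 at 2-fold. The 0 lower members became 1 with quantile normalization, 1 with the probe of the largest difference, 3 without the bound and 7 at 2-fold. Beside these, the share of all genes that was higher was 2.03% with normexp, 6.46% without the bound, 11.01% at 2-fold and 1.20% at 10-fold, and the share that was lower was 5.66% without the bound and 13.0% at 2-fold, where 9.09% of the members were lower. The 7 partners of proteolysis that were higher became 4 among genes on both arrays, 13 at 2-fold and 3 at 10-fold, and the 1 lower became 2 with the probe of the largest difference, without the bound and at 2-fold, and 0 at 10-fold. The 8 higher substrates became 5 with normexp and at 10-fold and 4 among genes on both arrays, and the 1 lower became 0 with normexp, among genes on both arrays and at 10-fold and 5 at 2-fold. Counts at another threshold or over fewer genes differ by construction, and the cause of the others was not tested. The median difference of genes on both arrays moved by -0.13 when scaled to the mean of the Gapdh probes and by -0.18 in the deposited table, and in both Mmp15 and Timp3 were no longer past 4-fold, which left 12 members. Of 371 values of 38 single genes under these settings, 347 moved by under 1.5-fold and 24 by more, of which 2 changed sign, both of Adam11, from -1.02 to 0.29 with the median of all probes and to 1.61 with the probe of the largest difference. Scaling to another constant shifts all genes by the same small amount, and a choice of probe cannot move genes with 1 probe. Many of the 347 were therefore fixed in advance, while with normexp 14 of 37 values moved.

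No paired analysis was possible because there is 1 array per group, and for the same reason no slide block was fitted and no replicate was left out. Signals under 27.8 in MHs and 18.4 in Sox9+EpCAM- cells set the smallest measurable level, and for the 19 members on neither array no difference was detectable. Both arrays lay on 1 slide. The array of MHs went against its label by Xist and Y-linked genes, and sex, injury, the way of isolation and the cells each RNA came from cannot be told apart.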
